A study of Mus musculus with 8 samples.

Results

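Kinesins are motor proteins that walk along microtubules or take them apart, and the genes named Kif or Kifc encode this family in the mouse. Mitotic kinesins build the spindle, move and align chromosomes and complete cytokinesis, and their transcripts usually accumulate in cells that prepare to divide. Transport kinesins carry vesicles, mitochondria and other cargo through the cytoplasm, and in mast cells kinesin-1 is known to carry secretory granules towards the cell surface. A search of the deposited gene names for Kif or Kifc followed by a number found 44 of 55359 genes, of which 14 were grouped as mitotic, 15 as transport and 15 as other kinesins. Among the last, Kif16bos is a noncoding transcript from the strand opposite to Kif16b and encodes no motor.

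The levels come from RNA sequencing of 8 untreated cultures of wild-type peritoneal mast cells (PMCs) of the strain C57BL/6x129/Sv. The lines PMC-303 and PMC-306, with 1 culture each, arose spontaneously from ageing cultures, and 6 cultures were primary WT PMCs, 3 from female and 3 from male mice. The labels give no age of the mice and no sex of the lines, while the paper reports a male karyotype for PMC-306. Per the study's methods the lines grew in a medium with less FCS and less SCF than the primary PMCs. In these libraries line and medium therefore cannot be told apart. Outside the sequencing, the paper also grew PMC-306 in the medium of primary PMCs. It reports that PMC-306 proliferated faster than primary PMCs there, and that mRNA of several proteases, Mrgprb2, Cdkn2a and Arf was unaltered by the medium. Kinesins are not among the genes it names for that comparison.

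The libraries held between 15918758 and 24180226 estimated counts, and values are given as CPM, the count relative to the library size after TMM scaling. For a gene with a count of 0 the limit is 3 counts, or 0.124 to 0.187 CPM depending on the library, which covers counting error only. The lines were compared with the 6 primary cultures by limma on log2(CPM + 0.1), with adjusted p-values over 14529 genes, and a gene was called at an adjusted p under 0.05. On this scale 18.3% of all genes tested were called higher and 15.5% lower in the lines, and the median log2 fold of all genes was -0.01. Of 8 mast cell markers, 6 reached at least 1095 CPM in every culture, whereas Hdc and Mrgprb2 stayed between 1.85 and 42.4 CPM. Kit (log2 fold -0.88 ± 0.12, SE, adjusted p = 0.000886), Fcer1a (-1.36 ± 0.24, adjusted p = 0.0031) and Il1rl1 (-0.69 ± 0.16, adjusted p = 0.0123) fell in the lines. The other 5 mast cell markers were not called, with log2 folds from -0.76 ± 0.67 (Mrgprb2) to 1.02 ± 0.61 (Hdc). Markers of lymphocytes, granulocytes, mesothelium and fibroblasts stayed under 1 CPM in every culture. The 6 macrophage markers summed to between 5.53 and 64.5 CPM in primary PMCs, to 2.43 CPM in PMC-303 and to 427 CPM in PMC-306. In PMC-306 this sum was almost entirely Adgre1 with 426 CPM, while Csf1r, C1qa, C1qb and Cd14 were at or near 0 in all cultures.

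The start regions of the kinesin genes are shown first. RefSeq promoters on GRCm38.p6, each with 250 bases before and 50 bases after an annotated start, were found for 34 of the 44 genes. They were searched on both strands for the CHR motif, TTTGAA or TTCGAA, through which the DREAM complex is known to act on late cell cycle genes, and for the CCAAT box, which NF-Y binds. These motifs were chosen after the levels had been seen, and a match is only a match of letters. No such promoter was found for Kif20a, Kif5b, Kif13b and Kifc3, among others. The following promoters are examples of mitotic kinesins that hold both motifs, which not all of them do, and, for contrast, the transport kinesin Kif3b. Capitals mark CHR and CCAAT matches on either strand (TTCAAA and ATTGG are the reverse complements of TTTGAA and CCAAT).
Kif11, chr19:37376132-37376431, plus strand: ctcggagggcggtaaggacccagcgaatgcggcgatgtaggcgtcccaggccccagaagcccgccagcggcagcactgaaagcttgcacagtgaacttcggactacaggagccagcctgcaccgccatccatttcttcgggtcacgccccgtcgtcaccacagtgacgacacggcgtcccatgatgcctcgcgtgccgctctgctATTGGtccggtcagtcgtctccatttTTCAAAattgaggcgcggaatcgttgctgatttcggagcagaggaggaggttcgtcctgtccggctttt
Kif23, chr9:61946750-61947049, minus strand: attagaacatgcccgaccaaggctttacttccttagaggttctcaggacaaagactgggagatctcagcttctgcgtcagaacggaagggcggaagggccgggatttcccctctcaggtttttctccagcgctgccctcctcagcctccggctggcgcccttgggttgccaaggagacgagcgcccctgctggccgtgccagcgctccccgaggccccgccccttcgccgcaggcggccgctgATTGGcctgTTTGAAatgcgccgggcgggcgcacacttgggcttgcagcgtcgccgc
Kif18b, chr11:102925075-102925374, minus strand: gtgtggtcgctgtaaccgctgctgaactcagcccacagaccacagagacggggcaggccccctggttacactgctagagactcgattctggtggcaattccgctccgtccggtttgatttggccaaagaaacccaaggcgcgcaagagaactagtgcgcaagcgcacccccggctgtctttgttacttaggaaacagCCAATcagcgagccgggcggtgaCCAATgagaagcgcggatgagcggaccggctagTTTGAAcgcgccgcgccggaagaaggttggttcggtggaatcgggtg
Kif22, chr7:127042371-127042670, minus strand: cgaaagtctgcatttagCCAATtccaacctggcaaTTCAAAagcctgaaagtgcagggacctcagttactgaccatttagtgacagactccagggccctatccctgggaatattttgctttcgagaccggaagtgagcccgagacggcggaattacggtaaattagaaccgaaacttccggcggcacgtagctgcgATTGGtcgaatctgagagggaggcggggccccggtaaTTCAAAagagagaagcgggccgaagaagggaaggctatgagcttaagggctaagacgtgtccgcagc
Kif3b, chr2:153291166-153291465, plus strand: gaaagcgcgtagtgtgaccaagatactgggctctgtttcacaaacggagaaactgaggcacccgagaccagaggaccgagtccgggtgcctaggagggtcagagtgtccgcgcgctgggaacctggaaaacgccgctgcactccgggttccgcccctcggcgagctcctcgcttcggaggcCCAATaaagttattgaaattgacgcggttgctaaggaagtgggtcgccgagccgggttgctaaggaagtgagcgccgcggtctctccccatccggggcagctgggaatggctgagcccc

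A CHR match stood in 11 of 13 mitotic promoters (84.6%), against 1 of 12 transport promoters (8.33%) and 3 of 13 promoters of other kinesins (23.1%). Over all 32851 promoters of the same length the share was 19.2%. CCAAT was found in 9 of the mitotic promoters (69.2%), in 4 of the transport promoters (33.3%) and in 37.4% of all promoters. Both motifs together occurred in 8 mitotic promoters (61.5%), in 0 transport promoters and in 7.52% of all promoters. Kifc1 and Kifc5b are close copies whose windows share most of their sequence, so they are not independent in these counts. Promoters are counted per annotated start, so the 12 transport promoters belong to 10 genes. The promoters of Kif1b overlap and hold the same CCAAT matches, which are therefore counted more than once. In Kif11, Kif15 and Kif22 a CHR match began between 19 and 17 bases before the start, and in Kif18b, Kif23 and Kifc1 between 2 and 4 bases after it. Of the mitotic kinesins without both motifs, Kif18a had neither in this window, Kif2b had CCAAT only, and Kif2c, Kif15 and Kif20b had CHR only. The CHR match lay far from the start in Kif2c (position -103) and Kif14 (position -228). The single transport match lay in 1 of the starts of Kif1a, and the promoter of Kif24, an other kinesin, held 1 CHR and 4 CCAAT matches.

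**Figure D1:**
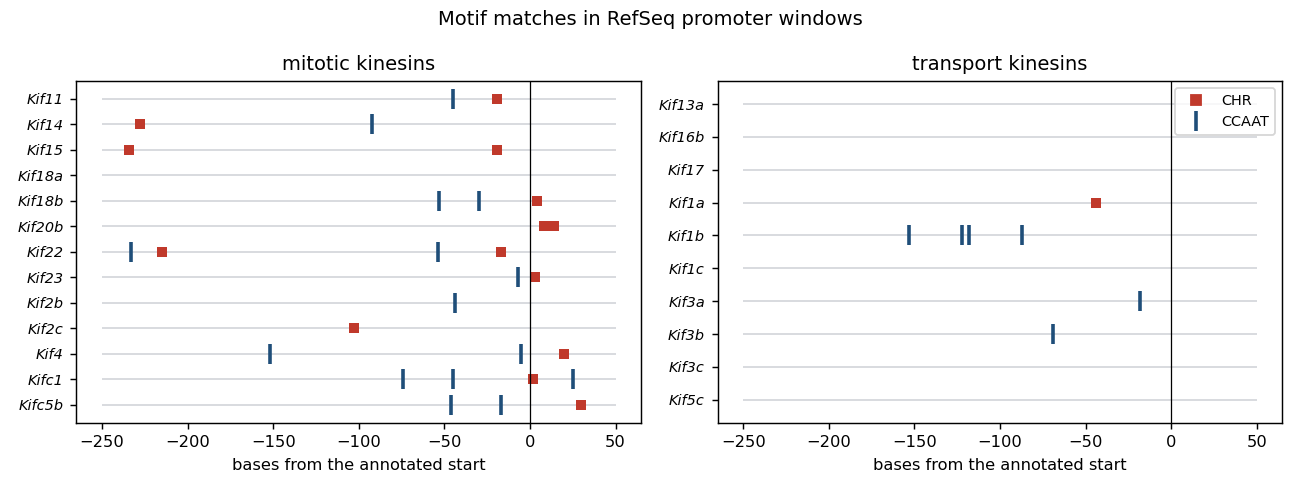
Positions of CHR matches (red squares) and CCAAT matches (blue bars) along each RefSeq promoter window, in bases from the annotated start, for 13 mitotic and 10 transport kinesin genes, with all starts of a gene on 1 line. CHR matches lie near the start in most mitotic kinesins, and the transport kinesins hold 1 CHR match, in Kif1a.

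All 13 mitotic kinesins that could be tested were higher in the lines, by between 3.94-fold (Kifc5b) and 14.8-fold (Kif2c). In each of them both lines lay above all 6 primary cultures, which was the case for 23.0% of all genes tested. The median log2 fold of these 13 genes was 3.28, against -0.01 over all genes. The adjusted p-values by limma lay between 0.0001 and 0.00371. Kif2b, the remaining mitotic gene, reached at most 1 count in any library and was not tested. The classes were drawn up with earlier results of these data known. Kif2a, which also works on spindles, was grouped as other and was not called by limma (log2 fold 0.08 ± 0.09, adjusted p = 0.562). In bulk RNA, more dividing cells and more transcript per cell cannot be told apart.

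Among the motors that set up the bipolar spindle, Kif11 (Eg5), which slides antiparallel microtubules apart, was the most abundant mitotic kinesin of the lines per length. It reached 270 CPM in PMC-303 and 231 in PMC-306, against a lowest, median and highest value of 9.49, 23.0 and 24.8 CPM in primary PMCs. This is a log2 fold of 3.73 ± 0.36 (SE, adjusted p = 0.000202), and no primary culture came near either line. Kif15, which can act beside Kif11 on the spindle, rose from 5.09, 11.6 and 12.2 CPM (lowest, median, highest) to 108 CPM in PMC-303 and 93.4 in PMC-306. Its log2 fold was 3.45 ± 0.37 (adjusted p = 0.000297). The minus end directed motor Kifc1 stood at 45.0 and 44.3 CPM in PMC-303 and PMC-306 and between 4.26 and 9.18 CPM in primary PMCs (log2 fold 2.79 ± 0.30). Its close copy Kifc5b stood at 15.7 and 13.6 CPM in the lines and between 2.01 and 4.92 CPM in primary PMCs (log2 fold 1.98 ± 0.31). Kifc1 and Kifc5b share much of their sequence, and since their counts were partly fractional, how the reads divide between them is uncertain.

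The kinesins that act on chromosomes and on microtubule ends rose to a similar degree. Kif2c (MCAK), a depolymerase that corrects wrong attachments at centromeres, had the highest fold of all kinesins. Its level was 52.7 CPM in PMC-303 and 53.6 in PMC-306, and 2.06, 4.06 and 5.24 CPM as lowest, median and highest of the primary cultures, giving a log2 fold of 3.89 ± 0.40 (adjusted p = 0.000251). The chromokinesin Kif4, which shapes chromosomes and the central spindle, rose from 3.20, 8.05 and 9.07 CPM to 89.9 CPM in PMC-303 and 72.9 in PMC-306 (log2 fold 3.59 ± 0.37, adjusted p = 0.000251). Kif22 (Kid), which pushes chromosome arms outwards, was between 3.20 and 8.54 CPM in primary PMCs and at 64.5 and 58.1 CPM in PMC-303 and PMC-306. Its log2 fold was 3.37 ± 0.36. Kif18a, which dampens chromosome movements at the metaphase plate, and Kif18b, which shortens astral microtubules, rose by log2 folds of 2.83 ± 0.29 and 3.21 ± 0.46. For Kif18a the lines held 34.0 and 30.5 CPM against 2.62 to 5.80 CPM, and for Kif18b 37.5 and 35.2 CPM against 1.94 to 5.59 CPM.

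The motors of the central spindle and of cytokinesis followed the same direction. Kif23 (MKLP1), which forms the centralspindlin complex with Racgap1, had 79.5 CPM in PMC-303, 58.8 CPM in PMC-306 and 3.82, 12.6 and 15.1 CPM as lowest, median and highest of primary PMCs. Its log2 fold of 2.82 ± 0.51 had the largest adjusted p of the mitotic kinesins (0.00371), and its primary values spread by 43.4% (coefficient of variation). Kif20a (MKLP2), which brings the chromosomal passenger complex to the midzone, rose from 4.25 to 14.1 CPM in primary PMCs to 103 and 91.5 CPM in PMC-303 and PMC-306 (log2 fold 3.28 ± 0.46). Kif14, which recruits citron kinase to the midbody, stood at 43.7 and 38.2 CPM in the lines and between 1.57 and 6.66 CPM in primary PMCs (log2 fold 3.28 ± 0.52). Kif20b (MPP1), which acts late in cytokinesis, had the highest mean level per length of this class in primary PMCs (7.63 ± 1.94 TPM, SD, n = 6, against 6.08 ± 2.96 for Kif23, which do not differ beyond their spread), and in CPM 24.1, 34.2 and 39.3 as lowest, median and highest. Its 151 and 140 CPM in PMC-303 and PMC-306 gave a log2 fold of 2.12 ± 0.17, smaller than that of the other central spindle motors but with the lowest adjusted p of all kinesins (0.0001).

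**Figure D2:**
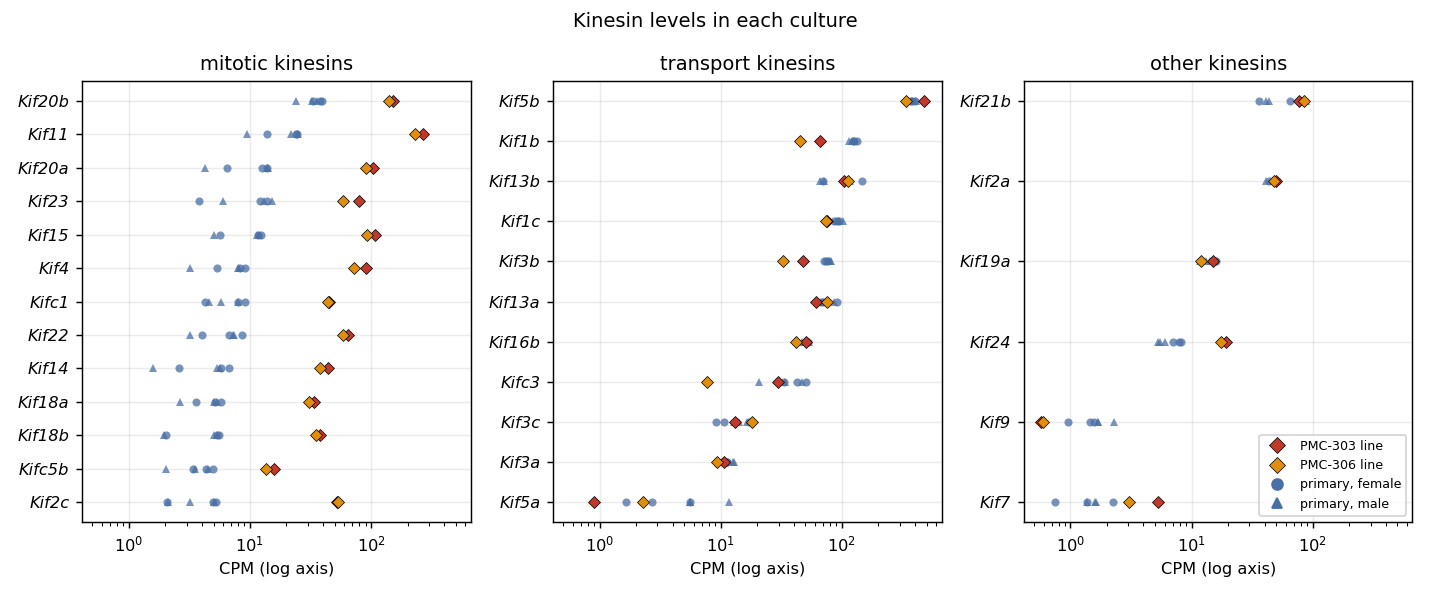
CPM (log axis) of the 30 kinesins with at least 1 CPM in a line or on average in primary PMCs, 1 point per culture. Both lines (red and orange diamonds) lie to the right of all 6 primary cultures (blue) for each of the 13 mitotic kinesins, and among or to the left of them for most transport kinesins.

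No such rise was found among the transport kinesins. Of the 13 tested, 0 were called higher by limma (0 also at an unadjusted p under 0.05) and 3 lower, namely Kif1b, Kif3b and Kif1c, beside 15.5% of all genes. Both lines lay above all primary cultures for 0 and below them for 4 (these 3 and Kif17), beside 20.1% of all genes. The median log2 fold of the 13 genes was -0.32. Kif1a and Kif5c reached at most 2 counts in any library and were not tested.

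Kinesin-1, which consists of a Kif5 heavy chain with kinesin light chains, was represented almost only by Kif5b. Kif5b was the most abundant kinesin per length in primary PMCs, with 102 ± 14.8 TPM (SD, n = 6), or 34.7% ± 1.41 of the summed kinesin TPM. In CPM its level was 476 in PMC-303 and 341 in PMC-306, against 342, 376 and 412 as lowest, median and highest of primary PMCs. PMC-303 thus lay above and PMC-306 just below the primary range, and the joint log2 fold of 0.08 ± 0.13 was not called (adjusted p = 0.641). Kif5a, a heavy chain known mainly from neurons, had 0.906 CPM in PMC-303, 2.26 CPM in PMC-306 and 1.63, 5.56 and 11.8 CPM in primary PMCs. Its log2 fold of -1.60 ± 0.67 was not called (adjusted p = 0.0974), the primary values spreading widely, and without female culture 3 the adjusted p was 0.0343.

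Kinesin-2 pairs Kif3a with Kif3b or Kif3c and holds the accessory subunit Kifap3, of which Kif3b and Kifap3 moved in opposite directions. Kif3b fell from 70.8, 76.6 and 81.4 CPM (lowest, median, highest) to 48.0 CPM in PMC-303 and 32.6 in PMC-306, a log2 fold of -0.95 ± 0.13 (adjusted p = 0.000996). Kif3a, at 10.6 and 9.28 CPM in the lines and between 9.39 and 12.9 CPM in primary PMCs, was not called (log2 fold -0.17 ± 0.15, adjusted p = 0.392). Kif3c was not called either, at 18.1 CPM or less in the lines against 9.07 to 17.1 CPM. Kifap3, in contrast, rose from 21.0, 31.2 and 39.5 CPM to 184 CPM in PMC-303 and 108 in PMC-306, a log2 fold of 2.21 ± 0.28 (adjusted p = 0.000615). The homodimeric kinesin-2 Kif17 lay at or below 1.93 CPM throughout and was not called (log2 fold -1.56 ± 0.55, adjusted p = 0.057).

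**Figure D3:**
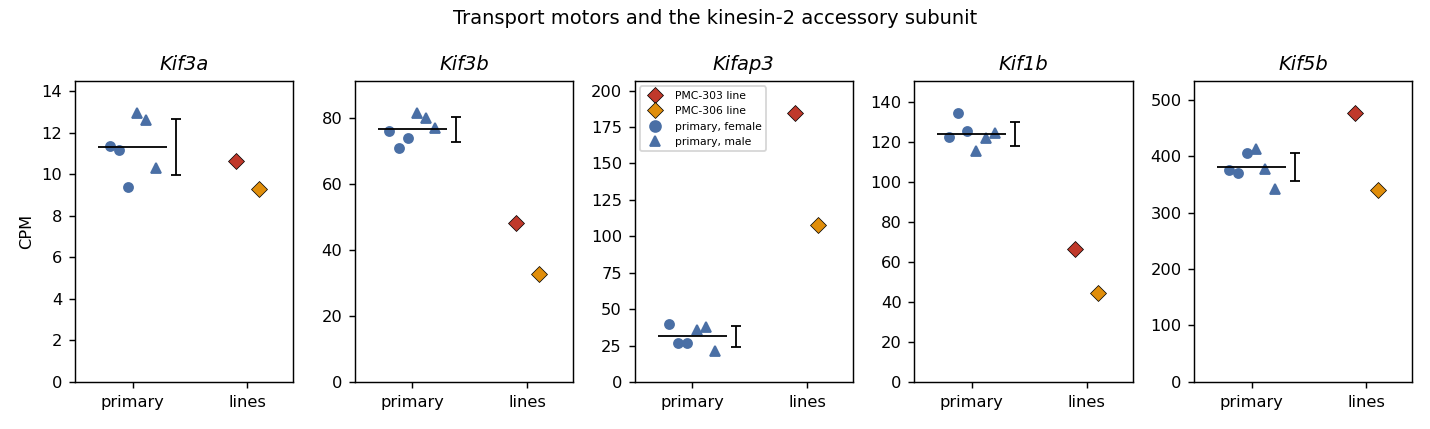
CPM of the kinesin-2 subunits Kif3a, Kif3b and Kifap3, of Kif1b and of Kif5b in each culture, with axes starting at 0; the horizontal line is the mean and the bar the SD of the 6 primary cultures. Kif3b and Kif1b are lower and Kifap3 is higher in both lines than in any primary culture, while for Kif5b the lines lie on either side of the primary values.

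Kinesin-3 motors carry vesicles, mitochondria and lysosomes over long distances, and Kif1b showed the clearest fall of the transport class. It fell from 116, 124 and 134 CPM in primary PMCs to 66.3 CPM in PMC-303 and 44.7 in PMC-306, a log2 fold of -1.19 ± 0.13 (adjusted p = 0.000338). Kif1c, which moves vesicles along the secretory route, fell slightly, from 86.6, 92.7 and 101 CPM to 75.4 CPM in PMC-303 and 74.1 in PMC-306. Its log2 fold of -0.32 ± 0.07 (adjusted p = 0.00954) was not called with total-count scaling (adjusted p = 0.0637), with female primary cultures only (0.0872) or without PMC-306 (0.0503). Kif13a and Kif16b, which act on endosomes, had log2 folds of -0.16 ± 0.14 and -0.14 ± 0.09 (adjusted p = 0.393 and 0.282). Kif13b was at 104 CPM in PMC-303 and 113 in PMC-306 and between 66.2 and 147 CPM in primary PMCs (log2 fold 0.23 ± 0.31, adjusted p = 0.6), so that both lines lay within the primary range.

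Of the minus end directed Kifc motors, Kifc3 separated the lines. Kifc3, which acts at the Golgi and at cell junctions, had 29.5 CPM in PMC-303 and 7.71 in PMC-306, against 20.6 to 50.9 CPM in primary PMCs. PMC-303 lay within and PMC-306 below the primary range, and the joint log2 fold of -1.26 ± 0.49 was not called (adjusted p = 0.0772). With PMC-306 as the only line the log2 fold was -2.22 and the adjusted p 0.00738, assuming that the line varies like the primary cultures. Without male culture 3, which held the lowest primary value, the adjusted p was 0.0468. The gene lies at chr8:95826350-95930066 on GRCm39. The paper reports an extra copy of this chromosome in most analysed metaphases of PMC-303 and did not observe it in PMC-306. Whether copy number plays a part in the level of Kifc3 was not tested. Kifc2 stayed at or below 14 counts per library.

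**Figure D4:**
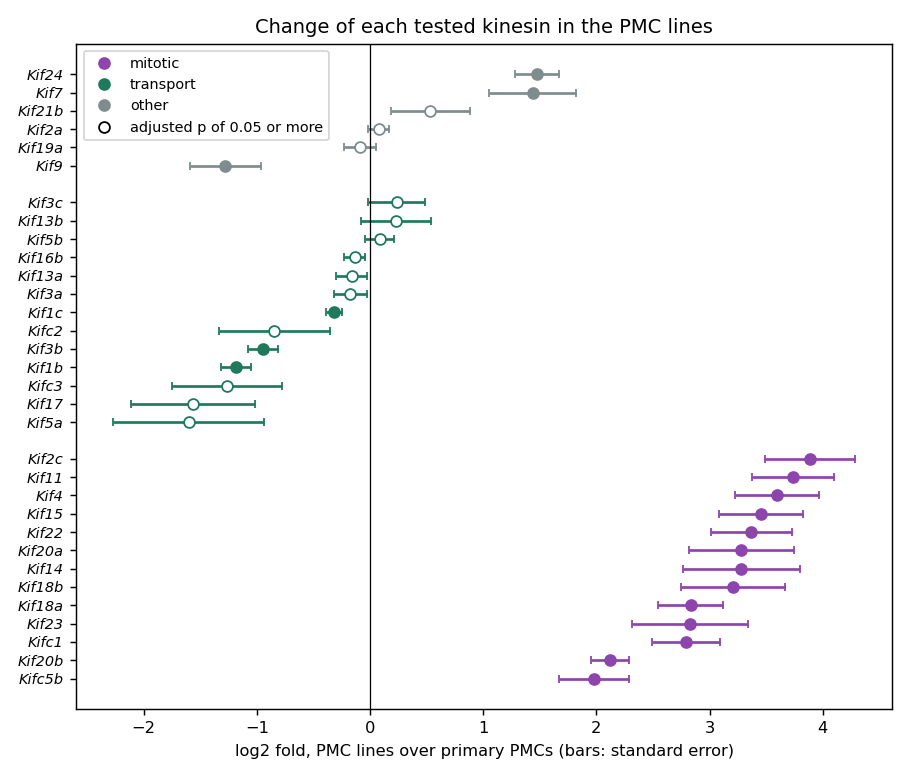
Log2 fold of the lines over primary PMCs (x axis) for the 32 kinesins tested, with the standard error by limma as bar; filled points were called at an adjusted p under 0.05. The 13 mitotic kinesins lie between 1.98 and 3.89, while the transport kinesins lie between -1.60 and 0.23.

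Among the other kinesins 6 were tested, of which Kif24 and Kif7 were called higher and Kif9 lower. Over all genes tested 18.3% were called higher and 15.5% lower, so these few calls do not set this class apart. Kif24, a centriolar kinesin that restrains the outgrowth of cilia, rose from 5.24, 6.51 and 8.23 CPM to 19.2 CPM in PMC-303 and 17.5 in PMC-306 (log2 fold 1.47 ± 0.20, adjusted p = 0.000818). Both lines lay well above the primary range. Kif7, which organises the ciliary tip in Hedgehog signalling, stood at 5.31 CPM in PMC-303, 3.04 CPM in PMC-306 and 0.747, 1.48 and 2.25 CPM in primary PMCs. Its call (log2 fold 1.44 ± 0.38, adjusted p = 0.0204) was lost without PMC-303 (log2 fold 1.05, adjusted p = 0.156) and with female primary cultures only (log2 fold 1.52, adjusted p = 0.11). Kif9, a motor of motile cilia, was at 14 counts in PMC-303, at 0.576 and 0.589 CPM in PMC-303 and PMC-306 and between 0.949 and 2.30 CPM in primary PMCs. Its log2 fold of -1.28 ± 0.32 (adjusted p = 0.0148) was not called when PMC-303 (0.0673) or PMC-306 (0.0637) was left out, or with female primary cultures only (0.118).

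The depolymerase Kif2a, which works in interphase as well as on spindles, was not called, at 50.1 and 48.0 CPM in the lines and between 41.1 and 50.9 CPM in primary PMCs (adjusted p = 0.562). It thus differed from its close relative Kif2c in having overlapping groups. Kif21b, which limits microtubule growth in lymphocytes and neurons, had log2 fold 0.53 ± 0.35 (adjusted p = 0.273), and Kif19a, which shortens cilia, -0.09 ± 0.14 (adjusted p = 0.671). Kif6, Kif12, Kif16bos, Kif19b, Kif21a, Kif26a, Kif26b, Kif27 and Kif28 reached at most 0.196 CPM in any library and were not tested.

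Per length, the composition of the kinesin transcripts differed between lines and primary PMCs. Mitotic kinesins made up 58.0% of the summed kinesin TPM in PMC-303 and 60.8% in PMC-306, but 13.8% ± 3.74 (SD, n = 6) in primary PMCs, with 16.6% as the highest culture. Their summed TPM was 374 in PMC-303 and 352 in PMC-306, against 17.5 to 53.5 in primary PMCs. The summed TPM of transport kinesins was 231 in PMC-303 and 187 in PMC-306, against 167 to 245 in primary PMCs. PMC-303 lay among the primary cultures, whereas PMC-306 lay above male culture 3 only. In CPM the sum of transport kinesins was 935 in PMC-303 and 759 in PMC-306, the latter below the 921 to 1023 of primary PMCs. In the order of TPM, Kif5b came first in both groups. In primary PMCs it was followed by Kif1c (19.3 ± 2.24, SD, n = 6), Kif1b (17.7 ± 1.88), Kif13b (17.7 ± 6.76), Kifc3 (17.2 ± 5.94) and Kif13a (16.0 ± 3.09), which do not differ beyond their spread. By the mean of the lines, the places after Kif5b were taken by Kif11 (55.9 to 62.9 TPM), Kif23 (43.1 to 48.7 TPM) and Kif22 (37.2 to 39.1 TPM), the last not apart from Kif20a (35.4 to 40.0 TPM). In male culture 3 the summed TPM of transport kinesins was 167, apart from the 221 to 245 of the other 5 primary cultures, whereas its summed CPM of 921 was the lowest by little (922 to 1023 in the others).

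**Figure D5:**
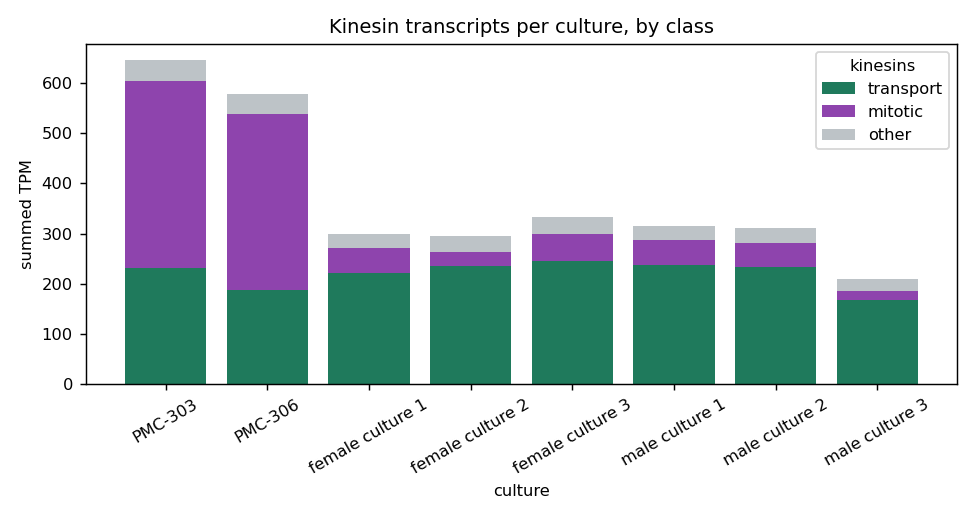
Summed TPM of transport, mitotic and other kinesins in each culture (stacked bars from 0). The bars of the lines reach 646 and 578 TPM, against 210 to 332 TPM in primary PMCs, with most of the difference in the mitotic kinesins (374 and 352 TPM against 17.5 to 53.5) and a smaller one in the other kinesins (40.8 and 40.2 TPM against 25.4 to 33.9).

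The primary cultures themselves differed in mitotic kinesins more than in transport kinesins. The median coefficient of variation over the 6 cultures was 33.8% for the tested mitotic, 12.8% for the tested transport kinesins and 13.8% for all genes tested. Male culture 3 held the lowest value of 10 of the 13 mitotic kinesins and female culture 2 that of the other 3. These cultures were also lowest in the proliferation marker Mki67, with 28.6 CPM in male culture 3 and 42.7 CPM in female culture 2, against 86.6 to 106 CPM in the other 4. In the lines Mki67 reached 1015 CPM in PMC-303 and 835 in PMC-306, a log2 fold of 3.77 ± 0.48 (adjusted p = 0.000667). Top2a was likewise lowest in these cultures, with 35.5 and 49.9 CPM against 78.9 to 92.4 CPM in the other 4. Pcna, in contrast, was highest in female culture 2 (104 CPM) and at 88.2 CPM in male culture 3, next to 88.7 CPM in female culture 1, so that the proliferation genes did not all set these cultures apart. These cultures also differed in some macrophage markers. Adgre1 was at 46.4 CPM in female culture 2 and 25.3 in male culture 3, against 3.37 to 4.35 CPM in the other 4. Lyz2 was at 18.0 and 5.72 CPM in these cultures, against 1.18 to 2.35 CPM in the other 4. The remaining macrophage markers were nearly absent in all cultures. The part of proliferation or of other cells in the result was not tested. Without male culture 3 and female culture 2 all 13 mitotic kinesins were still called higher, with a median log2 fold of 2.79.

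Kif13b and Kif21b varied among primary PMCs in a way not shared with the mitotic class. Kif13b was at 111, 147 and 116 CPM in female cultures 2 and 3 and male culture 3, and between 66.2 and 70.9 CPM in the other 3. Kif21b was at 65.5, 81.4 and 88.6 CPM in the same cultures and between 36.1 and 43.8 CPM in the others. Between the sexes, Kif24 and Kif19a were higher in all 3 female than in all 3 male cultures, and Kif3b, Kif5a and Kif9 were lower, out of 32 kinesins tested. Over all genes tested 3.93% were higher and 4.06% lower in all female cultures, and a difference between the sexes was not tested.

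PMC-306 was close to PMC-303 in mitotic kinesins. The difference of PMC-306 from PMC-303 in these 13 genes lay between -0.43 (Kif23) and 0.02 (Kif2c) on the log2 scale, with 12 of 13 lower in PMC-306. Over all genes tested 8058 of 14529 were lower in PMC-306, and the median difference was -0.05. Over all genes tested, 6.54% exceeded the level of PMC-303 by 2-fold or more in PMC-306, and 7.41% fell short of it by as much. Among kinesins this held for Kifc3, 3.79-fold higher in PMC-303, for Kif5a, 2.35-fold higher in PMC-306, and for Kifc2 with 2 counts in PMC-303 and 12 in PMC-306. Kif1b and Kif3b were lower in PMC-306 than in PMC-303 by 0.57 and 0.56 on the log2 scale. Each line is a single library, so these differences have no replicate check.

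The estimated transcript counts allowed shares of 35 transcripts of 15 kinesin genes to be compared, of which 4 lay above and 2 below the primary range in both lines. Over the transcripts of all genes chosen by the same minimum of 100 counts and a share of 10%, 6.63% lay above and 6.38% below, so that the kinesin counts are not far from this background. For Kif1b, whose long and short forms carry different cargo, the transcript Kif1b-203 made up 47.6% in PMC-303 and 39.1% in PMC-306, against 50.4% to 55.7% in primary PMCs. Kif1b-201 made up 35.7% and 36.0% in the lines, against 27.3% to 32.8%. For Kif20b, the transcript Kif20b-203 made up 62.5% and 66.5% in the lines and 38.1% to 61.1% in primary PMCs, and Kif20b-201 was correspondingly lower. For the other kinesins the shares overlapped, apart from 1 transcript each of Kif13b and Kif1c that was higher in the lines. The shares are estimates of the authors' quantification and were not tested.

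Genes of proteins that work with mitotic kinesins were higher in the lines as well. All 13 genes of this list were called higher, beside 18.3% of all genes, with log2 folds between 2.49 and 3.66. Cenpe, itself a kinesin of the kinetochore outside the naming rule, rose from 6.24, 17.2 and 21.4 CPM to 163 CPM in PMC-303 and 135 in PMC-306 (log2 fold 3.42 ± 0.47, adjusted p = 0.000922). The largest fold was that of Aurkb, the kinase of the chromosomal passenger complex, with 68.9 and 55.5 CPM in the lines against 2.94 to 6.74 CPM (log2 fold 3.66 ± 0.30, adjusted p = 0.000104).

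Of 16 partners of the transport kinesins 2 were called higher, 7 lower and 7 not, beside 18.3% higher and 15.5% lower over all genes. The kinesin light chain Klc1 fell from 126, 136 and 149 CPM to 104 CPM in PMC-303 and 99.4 in PMC-306 (log2 fold -0.43 ± 0.08, adjusted p = 0.00366). Klc2 and Klc4, the adaptors Mapk8ip3, Trak1 and Plekhm2, and the lysosomal GTPase Arl8a were the other partners called lower, and Arl8a fell most (log2 fold -0.52 ± 0.08, adjusted p = 0.00138). Besides Kifap3, Sytl3, which links Rab27b on mast cell granules to kinesin-1, was called higher, at 158 and 123 CPM against 71.0 to 123 CPM (log2 fold 0.69 ± 0.21, adjusted p = 0.0335). Rab27b itself was not called (log2 fold -0.26 ± 0.11, adjusted p = 0.103).

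Cytoplasmic dynein, which carries cargo in the direction opposite to most kinesins, and its cofactor dynactin were measured for comparison. Of 23 genes 21 were tested, 5 called higher and 4 lower, which is close to the 18.3% and 15.5% of all genes. The heavy chain Dync1h1 fell slightly, from 598, 656 and 675 CPM to 523 CPM in PMC-303 and 545 in PMC-306 (log2 fold -0.27 ± 0.08, adjusted p = 0.0277). Dync1li2 fell most (log2 fold -0.53 ± 0.09, adjusted p = 0.00235). The light chain Dynlt1b rose most, to 160 and 179 CPM against 29.6 to 90.7 CPM (log2 fold 1.95 ± 0.50, adjusted p = 0.018). Its primary values were split, with 88.2 CPM in female culture 3, 90.7 in male culture 3 and 29.6 to 31.5 in the others. Dynlt1a and Dynlt1c were also highest in these cultures among primary PMCs, whereas Dynlt1f was not. Dynlt1b has close copies in the genome, and its reads may be shared with them.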

How the data were processed

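Gene counts, transcript counts and gene TPM of 8 libraries were used. Per the paper and the submitters' processing notes, the authors prepared stranded total RNA libraries, trimmed reads with Trim Galore 0.6.7, aligned them to GRCm39 with STAR 2.7.9a and quantified them with Salmon 1.5.2. Estimated counts of genes and of transcripts, not normalized, were deposited by the authors and TPM values scaled for length and library size. A spreadsheet program had rewritten part of the deposited cells. These were restored, which concerned 3.37% of gene count cells and 25 of 352 kinesin cells. The restored kinesin counts then differed from their transcript sums by at most 0.54 counts, and in 20 of 352 kinesin TPM cells the point was placed by the counts. All of the value columns were mapped to a sample (0 without).

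Because the deposited tables held text cells, no count model was used. limma 3.58.1 in R 4.3.3, with a mean-variance trend, was run on log2(CPM + 0.1) with TMM library sizes for genes with about 10 counts in 2 libraries and 15 in total, and p-values were adjusted by Benjamini-Hochberg. Folds on this scale understate changes of low genes. The labels number the primary cultures as biological replicates but do not name the mice, and each line is 1 culture. The fit was tested on simulated data. Named are kinesins with at least 1 CPM in a line or on average in primary PMCs, and the others by their highest level or count. Exceptions named with more values after these had been seen are Kif17 and Kifc2, and transport and dynein partners called in either direction. The kinesins, gene lists and motifs were chosen with earlier results of these data known. Scaling, pseudocount, filter, sex and left-out libraries were varied. Tables were made with Python 3.11.15, numpy 2.4.6 and pandas 2.3.3. Transcript TPM was not used here.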

Additional observations from a re-analysis of the deposited data

Results flagged for a closer look

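Kif5b was 476 CPM in PMC-303, above all 6 primary cultures, and 341 CPM in PMC-306, below all 6, so that the lines left the primary range on opposite sides. With 1 library per line this difference was not tested, and PMC-306 lay just under the lowest primary culture with 342 CPM. In a search of the 30 named kinesins for a single primary culture far from the other 5, 0 were found, where chance gives about 1.5 such results.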

How the results depend on the processing

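In 16 alternatives, 22 of the 30 named kinesins, among them all 13 mitotic ones, kept their direction and their side of the threshold. The number of genes called, 4920, fell to 2146 with female and to 3031 with male primary cultures only, which leave fewer samples, and lay between 3773 and 4665 when single libraries were left out. The median log2 fold of the transport kinesins was -0.21 with total-count scaling and -0.23 with a pseudocount of 1 CPM. Of the other kinesins, 1 was called higher and 0 lower with female primary cultures only, and between 1 and 2 were called higher and between 0 and 1 lower when single libraries were left out. Folds near 0 that changed sign were those of Kif19a (0.021 with total-count scaling, 0.034 with male primary cultures only, between -0.24 and 0.073 when single libraries were left out), Kif16b (between -0.27 and 0.0066 when single libraries were left out) and Kif5b (likewise between -0.15 and 0.33), none of them called in these fits. Leaving out female culture 2 and male culture 3 together was chosen after seeing the data. No paired analysis was possible because the lines and the primary cultures share no replicate numbers.

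With 1 library per line, no value of a single line has a replicate check. A count of 0 allows up to 3 counts, so kinesins under 0.187 CPM could not be compared. The CHR and CCAAT matches depend on the annotated starts and on a window of 300 bases.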
